A study of Marchantia polymorpha with 18 samples.

Results

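The wound response of the double mutant Mpdes6fad5 of the liverwort Marchantia polymorpha was read from 6 of the 18 RNA-seq libraries of the study, 3 from mock-treated and 3 from wounded plants, chosen by their genotype and treatment labels. Mpdes6fad5 carries mutations in MpDES6 and MpFAD5, genes for fatty acid desaturases. The labels state neither the kind of lesion nor how many independent lines stood behind the mutant. The other 12 libraries were used only for comparison: 3 mock and 3 wounded each of the male wild-type accession Tak-1 and of the mutant Mpcoi1, which is defective in the jasmonate receptor component MpCOI1. All plants were grown for 3 weeks on medium with 1% agar, and wounding was done with tweezers. The treatment labels say 2 hours for mock and wound alike, while the protocol gives freezing 90 min after wounding, and both statements are kept here. Apical fragments without gemma cups were extracted, and each replicate pooled 6 to 8 plants.

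Jasmonates are plant wound hormones made from polyunsaturated fatty acids. Desaturases place the double bonds, lipoxygenases add oxygen, and enzymes of the CYP74 family convert the resulting hydroperoxides. In flowering plants the ligand is jasmonoyl-isoleucine, whereas Marchantia makes and perceives dinor-OPDA forms. The hormone joins the receptor COI1 to a JAZ repressor, which is then degraded and frees MYC transcription factors. JAZ genes and genes for hormone breakdown are themselves targets of the pathway, so their transcripts are commonly read as a sign of its activity.

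The Mpdes6fad5 libraries held 19382332 to 25875925 reads assigned to genes. In them 3 reads, the limit that a count of 0 allows, corresponded to 0.107 to 0.153 CPM. CPM are counts scaled to a common library size, here with the deposited scaling, which differs from scaling by library totals. Within each of the 2 groups every pair of libraries correlated at 0.994 or more across genes. In the groups used for comparison the lowest correlation was 0.986 in wounded Tak-1 and 0.991 in wounded Mpcoi1. Along principal component 1 (58.8% of variance) the wounded libraries of Mpdes6fad5 lay at 51.4 to 54.3. Those of Tak-1 lay at 40.6 to 44.3 and those of Mpcoi1 at 25.5 to 27.2. The mock libraries lay at -35.6 to -35.3 in Mpdes6fad5, -43.5 to -39.2 in Tak-1 and -46.6 to -44.6 in Mpcoi1. Along component 2 (18.4%) the Mpdes6fad5 libraries, mock and wounded, lay at 29.75 to 34.27. On it the Tak-1 libraries lay at -32.2 to -12.1 and the Mpcoi1 libraries at -21.3 to -4.8. Transcripts of both mutated genes were still counted. MpDES6, a front-end desaturase gene, stood at 43.8, 46.3 and 48.8 CPM in mock and 31.4, 32.96 and 27.5 CPM in wounded Mpdes6fad5, and MpFAD5 at 252, 299 and 304 CPM and 299, 283 and 301 CPM. In mock plants both were lower than in Tak-1, with differences of -0.55 (adjusted p = 0.000951) and -0.71 (adjusted p = 7.79e-06) on the log2(CPM + 1) scale, and transcript levels say nothing of whether the enzymes work. Of the defining markers of thallus and apical notch, all 7 were detected, with 2 higher and 3 lower after wounding. Their summed level was 492 to 551 CPM in mock and 542 to 612 CPM in wounded plants. The antheridium markers MpBHLH20 and MpPRM were at 0 in all 6 libraries, and the 4 markers of the male germline summed to 4.68 to 5.18 CPM in mock and 8.7 to 12.3 CPM in wounded plants. The 5 oil body cell markers summed to 102 to 103 CPM in mock and 141 to 153 CPM in wounded plants, with 1 higher (MpC1HDZ) and 4 lower. The 2 matched rhizoid markers summed to 77.3 to 80.9 CPM in mock and 109 to 124 CPM in wounded plants. MpIDDL6 rose, from 60.7 to 64.9 CPM to 91.6 to 108 CPM, while MpBHLH14 was not called (limma, adjusted p = 0.942). The 3 gemma cup and gemma markers summed to 83.7 to 86.7 CPM in mock and 73.0 to 75.6 CPM in wounded plants. Among them 1 was higher and 1 lower. The part of cell makeup in the results below was not tested, and in whole fragments fewer cells of a type and less RNA per cell cannot be told apart.

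Wounding changed the transcriptome of Mpdes6fad5 broadly, and the large changes were mostly rises. Of 13220 genes tested, 3716 (28.1%) were higher and 3817 (28.9%) lower in wounded than in mock plants at an adjusted p under 0.05. A rise of at least 2-fold was found for 1356 genes (10.3%) and a fall of at least 2-fold for 341 (2.58%). At 4-fold the split was 435 rises (3.29%) against 53 falls (0.401%). The share of rises among all calls was 49.3% with the deposited scaling but 37.7% when scaled by library totals and 35% after quantile normalization, which shifted the median response of all genes from -0.03 to -0.12 and -0.15. The median size of the response, without its sign, was 0.287 on the log2 scale in Mpdes6fad5, 0.283 in Tak-1 and 0.264 in Mpcoi1. Rises of at least 2-fold numbered 1198 (9.06%) in Tak-1 and 974 (7.37%) in Mpcoi1, and falls of that size 364 (2.75%) and 312 (2.36%). In Mpdes6fad5 the mock and wounded libraries did not overlap for 8821 genes (66.7%), so that a lack of overlap alone is common.

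The genes that rose in the double mutant were largely genes that also rose in the other genotypes. Of the 1356 rises of at least 2-fold, 1183 were also called higher in Tak-1 and 1055 in Mpcoi1, where 26% and 24.5% of all tested genes were called higher. Those called higher in all 3 genotypes numbered 1005, those in Tak-1 but not in Mpcoi1 178, those in Mpcoi1 but not in Tak-1 50, and those in neither 123. Of the 341 falls, 325 were also called lower in Tak-1 and 318 in Mpcoi1, where 30.6% and 28.5% of all tested genes were called lower. A call in one genotype and not in another is no test of a difference. By the test of the difference itself, over all tested genes, 7.47% responded higher in Mpdes6fad5 than in Tak-1 and 7.37% lower, and 10.2% higher than in Mpcoi1 and 8.13% lower.

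**Figure D1:**
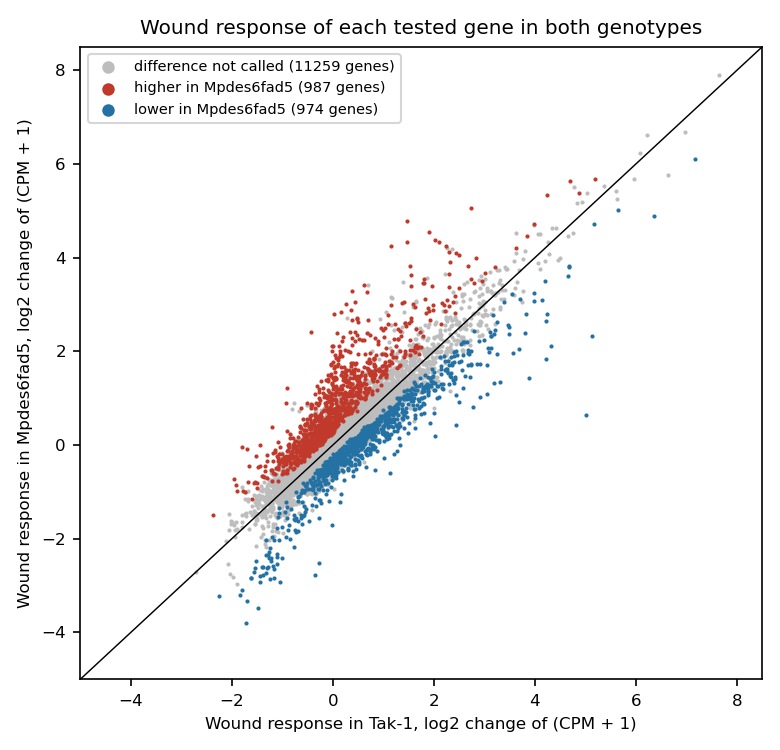
Each point is 1 of the 13220 tested genes, with its wound response (log2 change of CPM + 1) in Tak-1 on the x axis and in Mpdes6fad5 on the y axis; the line marks equal responses. Red points are the 987 genes whose response was higher and blue points the 974 whose response was lower in Mpdes6fad5 at an adjusted p under 0.05, and most genes lie along the line.

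MpJAZ, the single repressor of the pathway in Marchantia, stood at 17.5, 19.95 and 18.8 CPM in the 3 mock libraries and 117, 121 and 121 CPM in the 3 wounded ones. All wounded libraries lay far above all mock libraries. The rise was 2.61 ± 0.09 (SE, n = 3 per group, adjusted p = 4.46e-14) on the log2(CPM + 1) scale, beside 2.62 in Tak-1, and the difference of -0.01 from Tak-1 did not pass the test (adjusted p = 0.979). The level itself was lower than in Tak-1 both before and after wounding, with differences of -0.53 (adjusted p = 0.00017) and -0.53 (adjusted p = 9.79e-05). In Mpcoi1 the response was 0.55, and the response of the double mutant exceeded it by 2.06 (adjusted p = 2.59e-09).

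Of the 4 measured members of jasmonate signalling, 3 rose and none fell, where 28.1% of all tested genes rose. The counts in Mpcoi1 were the same, with a median of 0.41 beside 0.34 in Mpdes6fad5. MpTPL, the co-repressor, rose by 0.49 (adjusted p = 7.39e-06). MpNINJA, the adaptor between JAZ and TPL, went from 135, 135 and 129 CPM to 152, 146 and 158 CPM, groups that did not overlap. Its change of 0.19 lay just inside the threshold (adjusted p = 0.0488) and was smaller than in Tak-1 (difference -0.57, adjusted p = 0.00226) and in Mpcoi1 (difference -0.46, adjusted p = 0.00767). The call on its change was lost in 11 of 18 alternatives, for example at 0.08 with scaling by library totals, and when any single Mpdes6fad5 library was left out. MpCOI1 stood at 79.9, 80.4 and 78.7 CPM in mock and 77.03, 73.2 and 85.01 CPM in wounded plants, overlapping groups with a change of -0.02 (adjusted p = 0.821).

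Of the 5 measured genes of jasmonate turnover, 4 rose and 1 fell, where 28.1% and 28.9% of all tested genes did. Their median was 2.07 beside -0.03 over all tested genes. MpGH3A, of the family that joins hormones to amino acids, stood at 32.3, 33.1 and 37.1 CPM in mock and 231, 239.8 and 247 CPM in wounded libraries. MpCYP94-like, of the cytochrome P450 family that oxidises jasmonoyl-isoleucine in Arabidopsis, stood at 1.89, 1.71 and 1.601 CPM and 21.2, 20.2 and 18.5 CPM. In both genes every wounded library was several times above every mock library. The rises were 2.77 ± 0.13 and 2.94 ± 0.14, and they exceeded the responses of Mpcoi1 by 3.64 (adjusted p = 2.13e-10) and 3.07 (adjusted p = 3.61e-09). Their differences from Tak-1, -0.27 and -0.37, did not pass the test (adjusted p = 0.358 and 0.215). MpCYP94L1 rose in all 3 genotypes, from 11.02, 11.4 and 9.75 CPM to 44.4, 48.3 and 52 CPM in Mpdes6fad5. Its rise of 2.07 was smaller than in Tak-1 (difference -1.01, adjusted p = 0.000294) and in Mpcoi1 (difference -0.64, adjusted p = 0.00685, not called with 5 CPM added). The wounded levels of this gene in Tak-1 were 46.4, 39.1 and 57.3 CPM, and the mock level was higher in Mpdes6fad5 than in Tak-1 by 1.04 (adjusted p = 1.03e-06). MpGH3B changed by 0.27 (adjusted p = 0.0352), a call lost in 6 of 18 alternatives, and MpILR, of the family that frees hormones from amino acids, fell by 0.70 (adjusted p = 5.98e-06).

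The genes that make oxylipins moved in both directions. Of the 17 measured, 15 lipoxygenases and 2 CYP74 genes, 7 rose and 6 fell, where 28.1% and 28.9% of all tested genes did. None of the differences from Tak-1 was higher while 7 were lower, where 7.37% of all tested genes were lower. The lower count was 5 to 9 over the alternatives. The difference of MpLOX6, a gene near 0, turned the other way with voom, without passing the test. MpLOX2 stood at 215, 203 and 180.1 CPM in mock and 789, 727 and 746 CPM in wounded plants. The wounded libraries lay well above the mock libraries. Its rise of 1.92 ± 0.11 was smaller than in Tak-1 (difference -0.53, adjusted p = 0.0294), a call lost when any of 8 single libraries was left out, and above that of Mpcoi1 by 1.48 (adjusted p = 2.69e-06). MpCYP74N2 went from 175, 198 and 186 CPM to 392.4, 440.0 and 457 CPM, a rise of 1.20 ± 0.07. The difference was -0.57 against Tak-1 (adjusted p = 0.00122) and 1.87 against Mpcoi1 (adjusted p = 5.64e-10), in which the gene fell by 0.67.

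MpLOX4 showed the largest gap to Tak-1 within the list. It stood at 7.44, 4.52 and 3.86 CPM in mock and 23.6, 19.7 and 30.5 CPM in wounded Mpdes6fad5, at 19.1, 22.5 and 25.6 CPM and 394, 331 and 204 CPM in Tak-1, and at 7.03, 7.55 and 5.79 CPM and 3.54, 4.78 and 2.71 CPM in Mpcoi1. Wounding raised it in the double mutant, and the wounded libraries overlapped the mock libraries of Tak-1. The rise was 2.05 ± 0.23, smaller than in Tak-1 (difference -1.64, adjusted p = 0.00308) and above that of Mpcoi1 by 2.80 (adjusted p = 9.36e-06), and the mock level was -1.93 from that of Tak-1 (adjusted p = 5.45e-06). MpLOX8, at 1.81, 1.496 and 0.848 CPM in mock and 3.19, 2.64 and 2.54 CPM in wounded plants, rose by 0.69 (adjusted p = 0.0138), which was -1.31 from the response of Tak-1 (adjusted p = 0.00932). MpLOX6 had no read in any mock library and stood at 1.11, 0.417 and 0.305 CPM after wounding, at least 4.31-fold higher. The call on its rise was lost without mock replicate 2 or wounded replicate 1, and that on MpLOX8 without mock replicate 3 or wounded replicate 1. MpLOX10 rose by 0.80, and its response exceeded that of Mpcoi1 by 1.09 (adjusted p = 2.03e-05). MpCYP74N1 changed by -0.13 (adjusted p = 0.227), while its response was 0.75 above that of Mpcoi1 (adjusted p = 0.000358).

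The falling lipoxygenases fell in every genotype. MpLOX14, at 483, 425 and 424 CPM in mock and 151, 141 and 174 CPM in wounded plants, changed by -1.51 ± 0.12, a larger fall than in Tak-1 (difference -0.91, adjusted p = 0.00185). MpLOX12 fell from 44.1, 28.5 and 27.8 CPM to 4.73, 5.05 and 6.36 CPM, a change of -2.41 and a larger fall than in Tak-1 (difference -1.15, adjusted p = 0.00489). Mock and wounded libraries did not overlap in either gene. MpLOX13, MpLOX3, MpLOX16 and MpLOX11 changed by -2.12, -1.24, -1.04 and -0.53, and their differences from Tak-1 did not pass the test. MpLOX5, MpLOX7 and MpLOX9 changed by 0.07, -0.07 and 0.03 and did not pass the test. MpLOX1 rose by 2.03 with an SE of 0.68, and the Tak-1 libraries, which share the estimate of spread, disagreed: its levels were 35.5, 52.8 and 37.3 CPM and 194, 166 and 157 CPM in Mpdes6fad5 but 12.5, 27.1 and 172 CPM in wounded Tak-1.

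**Figure D2:**
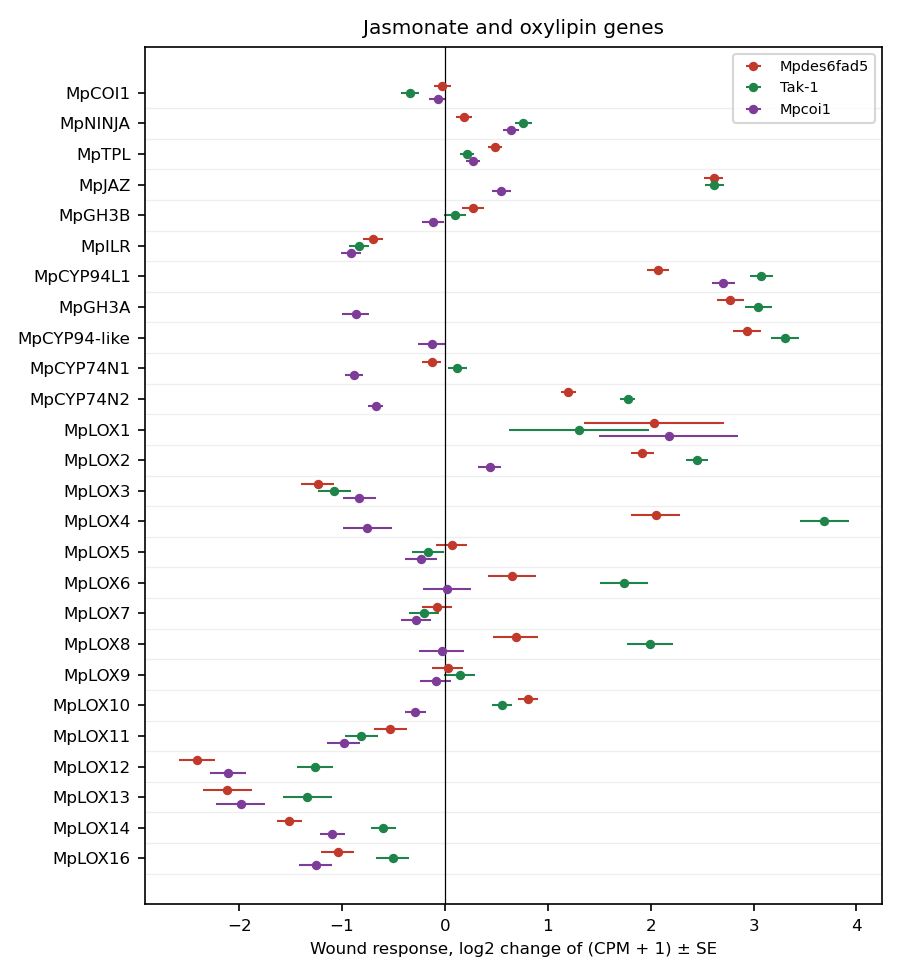
Wound response of the jasmonate signalling, jasmonate turnover and oxylipin genes on the x axis (log2 change of CPM + 1, points, with SE bars) in Mpdes6fad5, Tak-1 and Mpcoi1, 3 mock and 3 wounded libraries each. For MpJAZ, MpGH3A and MpCYP94-like the responses of Mpdes6fad5 and Tak-1 stand together and apart from Mpcoi1, while for MpLOX4 that of Mpdes6fad5 (2.05) lies between those of Tak-1 (3.69) and Mpcoi1 (-0.75).

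Among 21 measured genes for desaturases and fatty acid elongation, 8 rose and 5 fell, where 28.1% and 28.9% of all tested genes did. The median was -0.05. The rises of at least 2-fold were 3. MpFAD4 went from 12.9, 13.8 and 14.8 CPM to 56.4, 60.03 and 56.8 CPM, a rise of 1.99 ± 0.10. The elongase genes MpFAE3 and MpFAE2 rose by 1.42 and 1.18, the latter less than in Tak-1 (difference -0.45, adjusted p = 0.028), a call lost when any of 8 single libraries was left out. None of these 3 genes had overlapping groups. MpFAD11 rose by 0.93, from 209, 236 and 229.8 CPM to 431, 449.6 and 409 CPM, about as in Tak-1 (difference -0.07, adjusted p = 0.678), while Mpcoi1 showed a fall and the responses differed by 1.48 (adjusted p = 3.61e-09). MpFAD8 stood at 37.9, 37.7 and 43.6 CPM in mock and 40.04, 39.1 and 34.4 CPM in wounded plants, overlapping groups, and its response was -0.77 from that of Tak-1 (adjusted p = 0.000194) and 0.61 from that of Mpcoi1 (adjusted p = 0.000739). The elongase gene MpELO2 rose by 0.61, 0.62 more than in Tak-1 (adjusted p = 0.00182), from a mock level that was -0.65 from that of Tak-1. MpDES6 fell by 0.58 (adjusted p = 0.000255), MpFAD3 by 0.34 and MpFAD9 by 0.25, the last -0.69 from the response of Mpcoi1 (adjusted p = 8.92e-06). MpFAD5 changed by 0.05 (adjusted p = 0.637), a response 0.48 above that of Mpcoi1 (adjusted p = 0.0124) and not called with quantile normalization. MpDES5, MpFAD10 and MpFAD6 rose by 0.30, 0.23 and 0.93, and the small falls of MpHACD (-0.20) and MpKCR1 (-0.15) were lost when some single libraries were left out. In mock plants 13 of the 21 genes were lower in Mpdes6fad5 than in Tak-1 and none was higher, where 20.4% of all tested genes were lower.

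Transcription factors led the rises among genes with a symbol. Of the genes without one, Mp5g07480 (0.604, 0.321 and 0.0471 to 98.7, 96.6 and 97.6 CPM) and Mp5g20060 rose by 6.24 and 6.11, and Mp3g10250 and Mp5g12100 changed by -3.48 and -3.23. MpERF21, of the AP2/ERF family, stood at 0.189, 0.321 and 0.283 CPM in mock and 294, 302 and 310.0 CPM in wounded libraries. The 3 wounded libraries stood close together and far above the mock libraries, with a log2 change of 7.91 ± 0.12 (adjusted p = 1.54e-18). MpERF15 rose by 5.50, from 1.36, 1.995 and 1.22 CPM to 114, 105 and 118 CPM, and MpERF9 by 5.18. The difference of MpERF15 from Mpcoi1 was 2.33 (adjusted p = 0.000295). MpERF7 rose by 1.73 and differed from Mpcoi1 by 2.07 (adjusted p = 2.89e-08). In all, 8 of 19 measured AP2/ERF genes rose and 3 fell, where 28.1% and 28.9% of all tested genes did, with a median of 0.20.

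Of 38 measured bHLH genes, the family that holds MYC, 16 rose (42.1%) and 11 fell (28.9%), where 28.1% and 28.9% of all tested genes did. MpBHLH4 stood at 0.868, 0.463 and 0.706 CPM in mock and 175, 150.2 and 165 CPM in wounded Mpdes6fad5, and in wounded Mpcoi1 at 0.213, 0.133 and 0 CPM. Its rise of 6.62 ± 0.46 exceeded the response of Mpcoi1 by 6.67 (adjusted p = 1.03e-06), while the difference of 0.40 from Tak-1 was not called (adjusted p = 0.727). MpBHLH51 rose by 6.68 and MpBHLH3 by 2.99, 2.74 and 3.05 above Mpcoi1 (adjusted p = 1.31e-06 and 1.61e-06), the former not called with voom. MpBHLH2 stood at 5.21, 6.06 and 5.603 CPM in mock and 279, 246 and 280.2 CPM in wounded libraries, against 10.6, 12.6 and 9.56 CPM and 207, 243 and 223 CPM in Tak-1. Its rise of 5.35 ± 0.09 was larger than in Tak-1 by 1.10 (adjusted p = 2.18e-05) and than in Mpcoi1 by 4.0 (adjusted p = 7.64e-13). The mock level was -0.84 and the wounded level 0.26 from those of Tak-1.

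WRKY factors, a family tied to defence and wounding in flowering plants, mostly rose, 11 of 13 measured with 1 fall and a median of 1.49. Over all tested genes 28.1% rose and 28.9% fell. In Tak-1 10 of the 13 rose and in Mpcoi1 11. MpWRKY12 went from 12.9, 14.6 and 15.5 CPM to 111, 107 and 112 CPM, 2.86 ± 0.07, larger than in Tak-1 by 0.64 (adjusted p = 0.000199). MpWRKY6 went from 0.302, 0.534 and 0.8005 CPM to 16.6, 14.8 and 16.28 CPM, 3.46 ± 0.24, larger than in Tak-1 by 1.68 (adjusted p = 0.00308), a difference not called with voom. No mock library reached a wounded one in either gene. MpWRKY10 and MpWRKY7 rose by 2.91 and 2.70. Of 20 NAC and GRAS genes, 12 rose and 4 fell, led by MpGRAS7 (3.05), MpGRAS4 (2.82), MpNAC3 (2.24) and MpNAC4 (2.01). Of 45 MYB genes 17 rose and 11 fell, and of 21 C2H2 zinc finger genes 4 rose and 6 fell. The MYB rises included MpGCAM1, which acts in gemma cup formation, at 0, 0.142 and 0 CPM in mock and 2.12, 2.32 and 1.53 CPM in wounded plants, and MpDUO1, known from the male germline, at 0.566, 0.855 and 0.706 CPM and 5.53, 4.77 and 3.76 CPM. Both rose without overlap from low mock levels. MpC2H2-13 rose by 2.44, and MpC2H2-7 by 1.20, 0.67 more than in Tak-1 (adjusted p = 0.00379).

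Among 49 genes of the MAP kinase cascade and PP2C phosphatases, 24 rose and 9 fell, where 28.1% and 28.9% of all tested genes did. MpMAPKKK6, of the family of kinases at the top of such cascades, stood at 0.793, 0.356 and 0.612 CPM in mock and 35.7, 24.1 and 28.03 CPM in wounded Mpdes6fad5. In wounded Tak-1 it stood at 1.74, 1.16 and 3.3 CPM and in wounded Mpcoi1 at 2.86, 1.55 and 4.49 CPM, so that every wounded double mutant library lay above every other library. The rise was 4.25 ± 0.26, larger by 3.10 than in Tak-1 (adjusted p = 2.79e-05) and by 2.60 than in Mpcoi1 (adjusted p = 5.69e-05), the latter not called with voom. MpMAPKKK10 rose by 3.67, from 8.49, 10.4 and 9.51 CPM to 119.6, 131 and 146 CPM, 0.65 more than in Tak-1 (adjusted p = 0.021), a call lost when any of 3 single libraries was left out. MpPP2C_G and MpPP2C_F1 rose by 2.57 and 1.65. Of 9 calcium signalling genes 3 rose and 4 fell, with MpCML42, a calmodulin-like gene, at 12.9, 13.6 and 10.4 CPM and 133, 118 and 123 CPM and a change of -0.85 for MpCBL-B, a calcineurin B-like calcium sensor gene. Of 87 receptor-like kinase genes 28 rose and 28 fell, near the shares of all tested genes, and the largest rises were MpRLK-Pelle_RKF3c (2.86) and MpRLK-Pelle_WAK_LRK10L-1 (2.65).

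Genes of desiccation tolerance and abscisic acid, the hormone of drought responses, mostly rose. Of 69 measured members 51 rose and 6 fell, where 28.1% and 28.9% of all tested genes did. Rises of at least 2-fold numbered 42, and the median was 1.5. In Tak-1 42 of the 69 rose and in Mpcoi1 44. Late embryogenesis abundant (LEA) proteins protect cells against drying. In the list, 57 members carry LEA in their symbol and are called LEA members here, and 45 of these rose and 4 fell. The summed level of the list was 2278 to 2610 CPM in mock and 5346 to 6426 CPM in wounded Mpdes6fad5, against 3517 to 4044 CPM in wounded Tak-1 and 3607 to 4174 CPM in wounded Mpcoi1. The other 12 members include the dehydrin genes, so the split is one of symbols only. Of these 12, 6 rose and 2 fell. In wounded plants 5 of these 12 were higher than in wounded Tak-1 and 5 lower. The response was larger than in Tak-1 for 2, the dehydrin genes MpDHN2 and MpDHN3, and smaller for 1. MpNCED, whose relatives in flowering plants catalyse a committed step of abscisic acid synthesis, stood at 0.529, 0.677 and 0.518 CPM in mock and 11.7, 12.7 and 13.48 CPM in wounded plants (3.11 ± 0.18). The dehydrin genes MpDHN2, MpDHN3 and MpDHN1 rose by 3.12, 2.58 and 2.22, the kinase gene MpSNRK2A by 1.45 and the transcription factor gene MpABI5B by 1.65. MpABI5A and the receptor gene MpPYL1 fell by 0.43 and 0.40, and MpABA1, MpABA4, MpSNRK2B and MpABI3A did not pass the test. The responses of MpDHN2 and MpDHN3 were 1.30 and 0.44 above those of Tak-1 (adjusted p = 1.31e-05 and 0.0459). That of MpABI3A was -0.52 from Tak-1 (adjusted p = 0.0277).

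In wounded plants 39 of the 57 LEA members were higher in Mpdes6fad5 than in wounded Tak-1 and 6 were lower, where 25.5% of all tested genes were higher and 25.6% lower. In mock plants 28 of the 57 were already higher and 7 lower, where 17.5% of all tested genes were higher and 20.4% lower. The response itself was larger than in Tak-1 for 23 LEA members and smaller for 4, where 7.47% of all tested genes were larger and 7.37% smaller. Over the whole list of 69 the larger responses numbered 25, and that count moved with the processing: it was 13 with 0.1 CPM and 31 with 5 CPM added, 12 with the deposited values and 7 with voom on recovered reads. MpLEA-like61 stood at 2.76, 1.35 and 1.601 CPM in mock and 25.2, 19.98 and 38.6 CPM in wounded Mpdes6fad5, and at 0.105, 0.7903 and 0.22 CPM in wounded Tak-1. MpLEA-like39 stood at 0.264, 0.321 and 0.0942 CPM and 25.5, 24.4 and 33.4 CPM, and at 2.27, 2.98 and 3.08 CPM in wounded Tak-1. In both genes each wounded double mutant library lay far above each wounded Tak-1 library. The wounded levels of MpLEA-like61, MpLEA-like39, MpLEA-like34, MpLEA-like40 and MpLEA-like36 exceeded those of Tak-1 by 4.38, 2.92, 3.60, 3.27 and 3.56 (largest adjusted p = 1.28e-08). The differences of response of MpLEA-like61, MpLEA-like39, MpLEA-like34 and MpLEA-like40 from Tak-1 were 2.93, 2.63, 2.36 and 2.22, but with voom the last 3 turned to -0.07, -1.47 and -0.15 and that of MpLEA-like61 to 1.05, and none then passed the test. Those of MpLEA-like34 and MpLEA-like40 were not called with 0.1 CPM or the deposited values either, nor was that of MpLEA-like61 with the deposited values. MpLEA-like28 and MpLEAL2 differed from Tak-1 by 2.12 and 2.21 (adjusted p = 9.73e-06 and 0.000395), the former not called with voom. MpLEA-like18 stood at 60.7, 37.1 and 37.6 CPM in mock and 371, 342 and 421 CPM in wounded plants. It rose less than in Mpcoi1 (difference -1.78, adjusted p = 9.88e-05). Its mock level was 2.79 above that of Tak-1, and mock levels were not tested against Mpcoi1. How alike these LEA genes are was not measured here, and reads shared between close copies, if any, may have been split among them.

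Phenylpropanoid and flavonoid genes, which make ultraviolet screens and defence phenolics, rose more often than they fell, 32 against 15 of 66 measured. Of all tested genes, 28.1% rose and 28.9% fell. The list held 20 rises of at least 2-fold and had a median of 0.21. MpPKS/CHS21, of the chalcone synthase family, stood at 4.87, 4.42 and 3.34 CPM in mock and 132, 114 and 108 CPM in wounded plants. MpPKS/CHS18 stood at 4.08, 4.92 and 4.66 CPM and 103, 102 and 93.6 CPM, and MpPAL7, a gene for phenylalanine ammonia-lyase, at 1.55, 1.25 and 0.942 CPM and 28.1, 25.03 and 23.4 CPM. In each of the 3 genes the 3 wounded double mutant libraries stood close together. The rises were 4.52, 4.18 and 3.57, with SEs of 0.42, 0.70 and 0.52 that carry the spread of the Tak-1 libraries, in which wounded MpPKS/CHS18 stood at 20.4, 30.1 and 189 CPM. Differences from Tak-1 were not called for these genes (adjusted p = 0.333, 0.241 and 0.13); without Tak-1 wounded replicate 3 those of MpPKS/CHS18 and MpPAL7 were 2.77 (adjusted p = 0.0195) and 2.41 (adjusted p = 0.00736). Against Mpcoi1, 18 of the 66 responded more and 2 less, where 10.2% and 8.13% of all tested genes did, among them MpPKS/CHS18 by 3.38 (adjusted p = 0.0242) and MpPAL3 by 3.42 (adjusted p = 0.0197). Neither of these differences was called with voom or robust variance shrinkage, and that of MpPKS/CHS18 was lost without Mpcoi1 mock replicate 1 or wounded replicate 1 or 2. MpPKS/CHS7 fell from 46.2, 28.6 and 26.2 CPM to 2.52, 2.83 and 4.93 CPM.

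Dirigent proteins, which steer the coupling of phenolic radicals, and polyphenol oxidases formed a list of 82, of which 31 rose and 15 fell. These were 37.8% and 18.3%, beside 28.1% and 28.9% of all tested genes. MpDIR39 stood at 0.831, 0.784 and 0.706 CPM in mock and 56.5, 45.7 and 53.3 CPM in wounded Mpdes6fad5, at 242, 252 and 308 CPM in wounded Tak-1 and at 1.66, 3.23 and 1.56 CPM in wounded Mpcoi1. The wounded double mutant thus lay between the other wounded groups with no overlap. The rise of 4.89 ± 0.16 was -1.47 from that of Tak-1 (adjusted p = 0.000305) and 4.33 from that of Mpcoi1 (adjusted p = 2.53e-10). The nearby genes MpDIR61, MpDIR65 and MpDIR41 had at most 2 reads over the 3 mock libraries and stood at 1.81, 2.64 and 1.07, at 2.83, 0.603 and 1.78 and at 1.19, 1.11 and 1.07 CPM after wounding. In wounded Tak-1 they stood at 14.5, 11.3 and 16.7, at 7.38, 8.93 and 11.3 and at 4.85, 8.27 and 9.59 CPM, and no read was counted in Mpcoi1. Their responses were -2.46, -1.97 and -1.97 from those of Tak-1 (adjusted p = 3.83e-06, 0.000348 and 2.18e-05), and none of the 3 differences was called with voom. That of MpDIR39 from Tak-1 was called with neither 0.1 CPM, the deposited values nor voom, where it stood at -0.93, -0.92 and -0.84. MpDIR42 stayed low, with 0.265, 0.0927 and 0.102 CPM in wounded double mutants against 2.58, 3.21 and 3.56 CPM in wounded Tak-1, a difference of -1.81 (adjusted p = 3.66e-06). MpPPO3, a polyphenol oxidase gene, rose by 3.49, and MpDIR32 and MpDIR51 by 3.43 and 3.44.

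Of 67 glutathione and redox genes 26 rose (38.8%) and 15 fell (22.4%), where 28.1% and 28.9% of all tested genes did. MpGST38, for a glutathione S-transferase, went from 0.227, 0.107 and 0 CPM to 54.3, 49.7 and 57.7 CPM and MpCAT1, for the peroxide-removing enzyme catalase, from 0.113, 0.249 and 0.235 CPM to 30.7, 29.6 and 31.2 CPM. Both were near absent in mock and clearly expressed in every wounded library. Their differences from Tak-1, 0.93 and 0.73 (adjusted p = 0.00308 and 0.00294), rest on mock levels near 0, and neither was called with 0.1 CPM, the deposited values or voom. That of MpCAT1 turned to -0.05 with the deposited values and -0.81 with voom. MpGST26 went from 83.8, 84.8 and 86.5 CPM to 119, 125 and 128 CPM, -1.43 from the response of Mpcoi1 (adjusted p = 0.00149). Its mock level was 2.13 above that of Tak-1 and was not tested against Mpcoi1. Of 115 cytochrome P450 and glycosyltransferase genes 27 rose (23.5%) and 43 fell (37.4%). MpCYP815A1 rose from 8.57, 8.34 and 9.61 CPM to 419, 461 and 489 CPM, 5.54 ± 0.16, 6.16 above Mpcoi1 (adjusted p = 4.4e-12), in which wounded plants held 2.69, 2.52 and 3.96 CPM. MpCYP707A, whose Arabidopsis relatives break down abscisic acid, rose by 3.65, 1.34 more than in Tak-1 (adjusted p = 0.00198), from a mock level -1.82 from that of Tak-1. MpUGT35 rose by 2.46, -0.75 from Tak-1 (adjusted p = 0.018), a call lost without Tak-1 wounded replicate 1. Of 45 terpenoid genes 13 rose (28.9%) and 10 fell (22.2%), where 28.1% and 28.9% of all tested genes did, with MpSQS1, for squalene synthase, and MpHMG, for HMG-CoA reductase, higher by 1.18 and 0.86.

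Pathogenesis-related and other defence genes split into 29 rises (33.7%) and 20 falls (23.3%) of 86, near the 28.1% and 28.9% of all tested genes. MpPR15e went from 3.06, 4.17 and 2.78 CPM to 37.2, 30.3 and 36.99 CPM, MpPR15c from 0.415, 1.28 and 0.659 CPM to 14.1, 8.85 and 11.1 CPM, and MpGH17.15, of the glucanase family, from 43.2, 48.1 and 47.5 CPM to 269.9, 278 and 280.0 CPM. Groups did not overlap in these 3 genes. Of 169 membrane transport genes 60 rose (35.5%) and 43 fell (25.4%), led by the ABC transporter genes MpABC85 (3.30), MpABCG29 (3.20), MpABCC15 (3.04) and MpABC86 (2.96). Of 6 heat shock genes 4 rose, all HSP90 chaperone genes. MpHSP90-1 stood at 341, 322 and 305 CPM in mock and 419, 437 and 391 CPM in wounded Mpdes6fad5, against 871, 852 and 800.3 CPM in wounded Tak-1. Its rise of 0.36 was smaller than in Tak-1 (difference -0.92, adjusted p = 1.17e-05) and in Mpcoi1 (difference -0.95, adjusted p = 2.02e-06). MpHSP90-4 likewise rose by 0.28, -0.46 from Tak-1 (adjusted p = 0.00191), whereas MpHSP90-5, at 0.755, 1.35 and 0.753 CPM and 5.53, 3.71 and 4.07 CPM, rose by 1.48, 1.51 more than in Tak-1 (adjusted p = 0.000241).

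**Figure D3:**
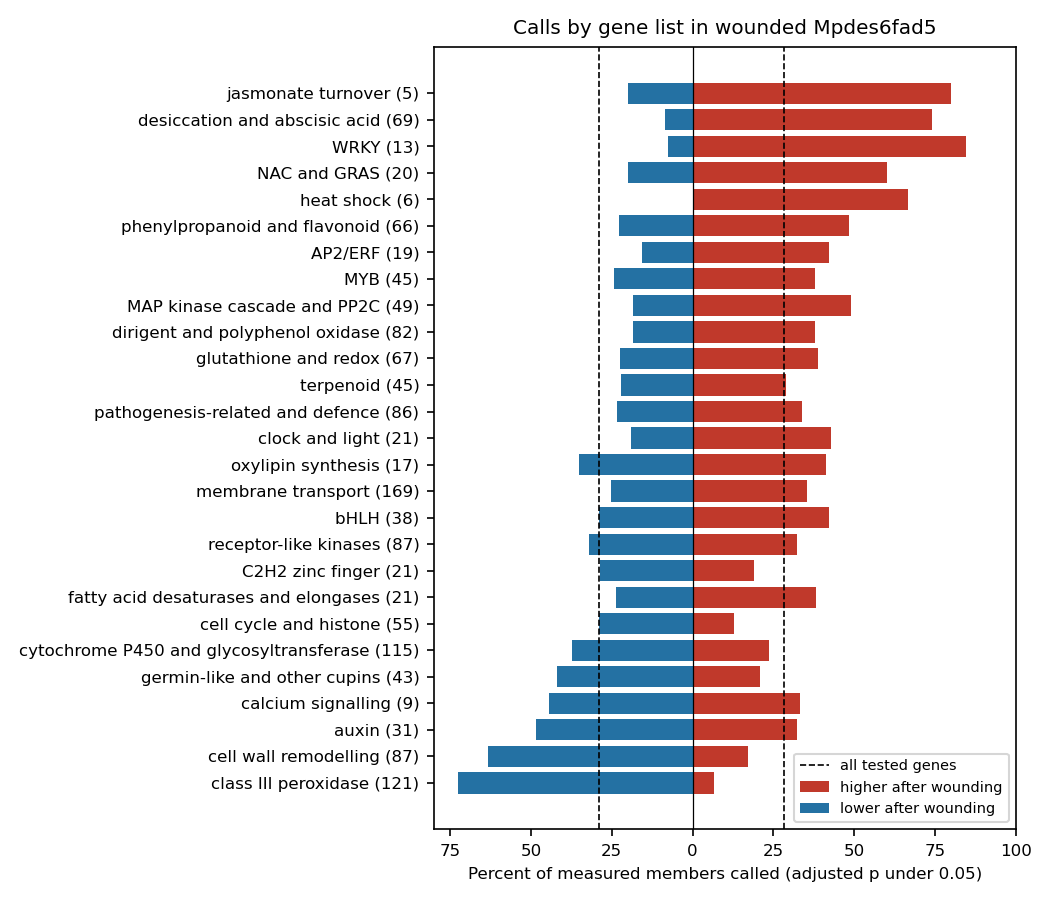
Percent of measured members (number in brackets) of each gene list that were higher (red, to the right) or lower (blue, to the left) in wounded than in mock Mpdes6fad5 at an adjusted p under 0.05, with lists ordered by their median response. Dashed lines mark all tested genes, 28.1% higher and 28.9% lower. Far beyond the right line reach the WRKY (84.6%), jasmonate turnover (80.0%), desiccation (73.9%), heat shock (66.7%) and NAC and GRAS (60.0%) lists. The peroxidase and cell wall lists reach furthest beyond the left one.

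The strongest group falls were in class III peroxidases, secreted enzymes that oxidise phenolics and modify cell walls. Of 121 measured, 88 fell and 8 rose, where 28.9% of all tested genes fell and 28.1% rose. Falls of at least 2-fold numbered 57, and the median was -0.97 beside -0.03 over all tested genes. In Tak-1 95 of the 121 fell and in Mpcoi1 88, with medians of -0.90 and -0.82. MpPOD19 stood at 35.98, 19.6 and 18.8 CPM in the mock libraries and 0.796, 0.973 and 0.5596 CPM in the wounded ones. MpPOD96 went from 50.3, 33.6 and 27.4 CPM to 2.92, 2.69 and 3.46 CPM and MpPOD122 from 85.4, 57.04 and 51.5 CPM to 8.05, 8.95 and 11.8 CPM. Mock replicate 1 was the highest mock library in all 3 genes, and even the lowest mock library lay well above every wounded one. The falls were -3.80 ± 0.24, -3.20 ± 0.18 and -2.61 ± 0.15. Mock replicate 1 held the highest mock level for 68 of the 88 peroxidase genes that fell and for 240 of all 341 falls of at least 2-fold, and without it 330 genes fell at least 2-fold. The summed level of the list was 3386 to 3827 CPM in mock and 2518 to 2722 CPM in wounded Mpdes6fad5. It was 2980 to 3383 CPM and 2814 to 3086 CPM in Tak-1, and 3007 to 3152 CPM and 2150 to 2355 CPM in Mpcoi1. With genes limited to a mean of at least 5 CPM, 51 peroxidases fell, since fewer were tested.

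Several of the falls started from mock levels above those of Tak-1. In mock plants 40 of the 121 peroxidase genes were higher in Mpdes6fad5 than in Tak-1 and 31 lower, where 17.5% and 20.4% of all tested genes were. The response was lower than in Tak-1 for 23 and higher for 7, where 7.37% and 7.47% of all tested genes were. MpPOD19 and MpPOD13 differed from the response of Tak-1 by -2.08 and -2.24 (adjusted p = 0.000633 and 0.000221), with mock levels 2.53 and 2.11 above those of Tak-1, while their wounded levels did not pass the test against wounded Tak-1 (adjusted p = 0.129 and 0.656). Against Mpcoi1 the responses of MpPOD19, MpPOD13 and MpPOD17 differed by -1.81, -2.21 and -1.43. None of these differences of response was called with the deposited values or voom, nor, for MpPOD19 and MpPOD17, with 0.1 CPM. MpPOD18 rose, from 4.04, 2.28 and 2.83 CPM to 7.83, 9.55 and 8.496 CPM, -1.78 from the response of Mpcoi1 (adjusted p = 6.38e-05). The same limit on shared reads applies to the peroxidase family.

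Cell wall remodelling genes fell as well, 55 of 87 measured with 15 rises and a median of -0.52. Over all tested genes 28.9% fell and 28.1% rose. In Tak-1 47 of the 87 fell and in Mpcoi1 51. MpGH16.30, of the family that cuts and rejoins xyloglucan, went from 28.6, 20.1 and 15.9 CPM to 1.11, 0.742 and 1.78 CPM. Its neighbour MpGH16.29 went from 9.703, 3.81 and 3.48 CPM to no read in any wounded library, a level at least 37.1-fold lower. MpGH16.7 moved the other way, from 4.95, 6.77 and 7.49 CPM to 159, 177 and 162 CPM, and the pectin methylesterase gene MpCE8.8 from 1.25, 0.819 and 1.04 CPM to 30.4, 28.4 and 33.2 CPM. Both rises, 4.51 ± 0.15 and 3.96 ± 0.15, did not pass the test of a difference from Tak-1 (adjusted p = 0.21 and 0.601). MpGH16.25 went from 3.93, 2.28 and 1.88 CPM to 0.0885, 0.0464 and 0.153 CPM, whereas in mock Tak-1 it stood at 0.155, 0 and 0 CPM, and the responses differed by -1.70 (adjusted p = 0.000103) and, against Mpcoi1, by -1.60 (adjusted p = 7.35e-05), the latter not called with voom. Of 43 germin-like and other cupin genes 18 fell and 9 rose. MpCupin36 went from 10.1, 5.7 and 4.61 CPM to 0.133, 0.0927 and 0.0509 CPM, -2.43 from Tak-1 (adjusted p = 8.04e-05) and -1.92 from Mpcoi1 (adjusted p = 0.000345), neither called with voom, and MpCupin86 rose from 42.4, 40.6 and 39.8 CPM to 373, 391.8 and 402 CPM. MpMCA-IIc, a type II metacaspase gene, changed by -2.72, from 52.5, 30.9 and 34.4 CPM to 5.398, 4.17 and 5.34 CPM.

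**Figure D4:**
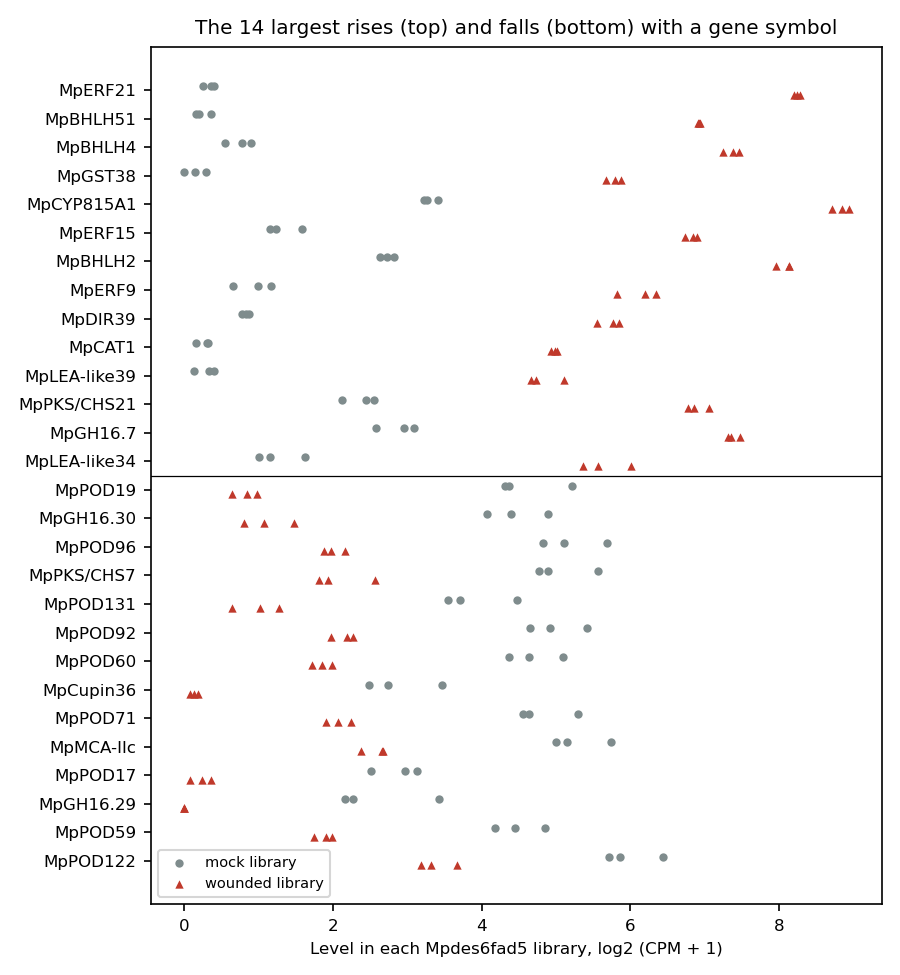
Level (x axis, log2 of CPM + 1) in each of the 3 mock (grey circles) and 3 wounded (red triangles) Mpdes6fad5 libraries for the 14 largest rises and the 14 largest falls among genes with a symbol, chosen by this contrast. Mock and wounded libraries do not overlap in any of the 28 genes, as the choice required, and 9 of the 14 falls are class III peroxidases.

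Of 55 cell cycle and histone genes 7 rose (12.7%) and 16 fell (29.1%), the latter near the 28.9% of all tested genes. The falls were led by the linker histone gene MpH1 (168, 164 and 154 CPM to 68.9, 70.5 and 68.6 CPM, -1.21 ± 0.05) and MpH4e (-1.03). The fall of MpH1 exceeded that of Tak-1 (difference -0.29, adjusted p = 0.0171). MpSMR, of a family of cyclin-dependent kinase inhibitors, and the S-phase factor gene MpE2F rose by 1.5 and 1.01. Of 31 auxin genes 10 rose (32.3%) and 15 fell (48.4%), where 28.1% and 28.9% of all tested genes did. MpPIN3, an auxin efflux carrier family gene, went from 8.797, 7.91 and 5.46 CPM to 88.7, 68.1 and 88.8 CPM, and MpSAUR13, MpSAUR8 and MpSAUR7 rose by 2.23, 2.04 and 2.02. The auxin synthesis genes MpYUC2 and MpTAA, notch markers here, fell by 1.97 and 0.59. Of 21 clock and light genes 9 rose (42.9%) and 4 fell (19.0%), with MpGI higher by 1.16 and a change of -0.75 for the blue-light receptor gene MpPHOT.

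Responses that differed from Tak-1 beyond the replicate spread were about evenly split with the deposited scaling, 987 higher (7.47%) and 974 lower (7.37%). With median-of-ratios rescaling 40.3% of the called differences were higher, against 50.3% here. For 729 of the 987 the wounded level was above that of Tak-1 and for 66 below it. The mock level was below that of Tak-1 for 320 and above it for 132. For 737 of the 974 the wounded level was below that of Tak-1 and for 29 above it. The mock level was above that of Tak-1 for 309 and below it for 119. Over all tested genes 25.5% had a higher and 25.6% a lower wounded level, and 17.5% and 20.4% a higher and lower mock level. A difference of response is the wounded difference minus the mock difference, so these counts follow in part from the choice of genes. MpRDR1/2-2, of the RNA-dependent RNA polymerase family of RNA silencing, stood at 0, 0.0713 and 0 CPM in mock and 7.79, 5.15 and 5.55 CPM in wounded Mpdes6fad5. Wounded Tak-1 held 0, 0 and 0.132 CPM and wounded Mpcoi1 0.171, 0.0442 and 0.0445 CPM, near the 3-read limit, so that the wounded double mutant stood apart from all other groups. The differences were 2.77 from Tak-1 (adjusted p = 2.74e-07) and 2.80 from Mpcoi1 (adjusted p = 1e-08). Against Mpcoi1, 1344 responses (10.2%) were higher and 1075 (8.13%) lower, a split that turned to 43.2% higher after quantile normalization. The most positive of these included MpPKC2, at 1.66, 1.46 and 0.989 CPM in mock and 32.8, 18.8 and 16.23 CPM in wounded double mutants and 0.213, 0.752 and 1.11 CPM in wounded Mpcoi1, a difference of 3.49 (adjusted p = 2.35e-06).

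**Figure D5:**
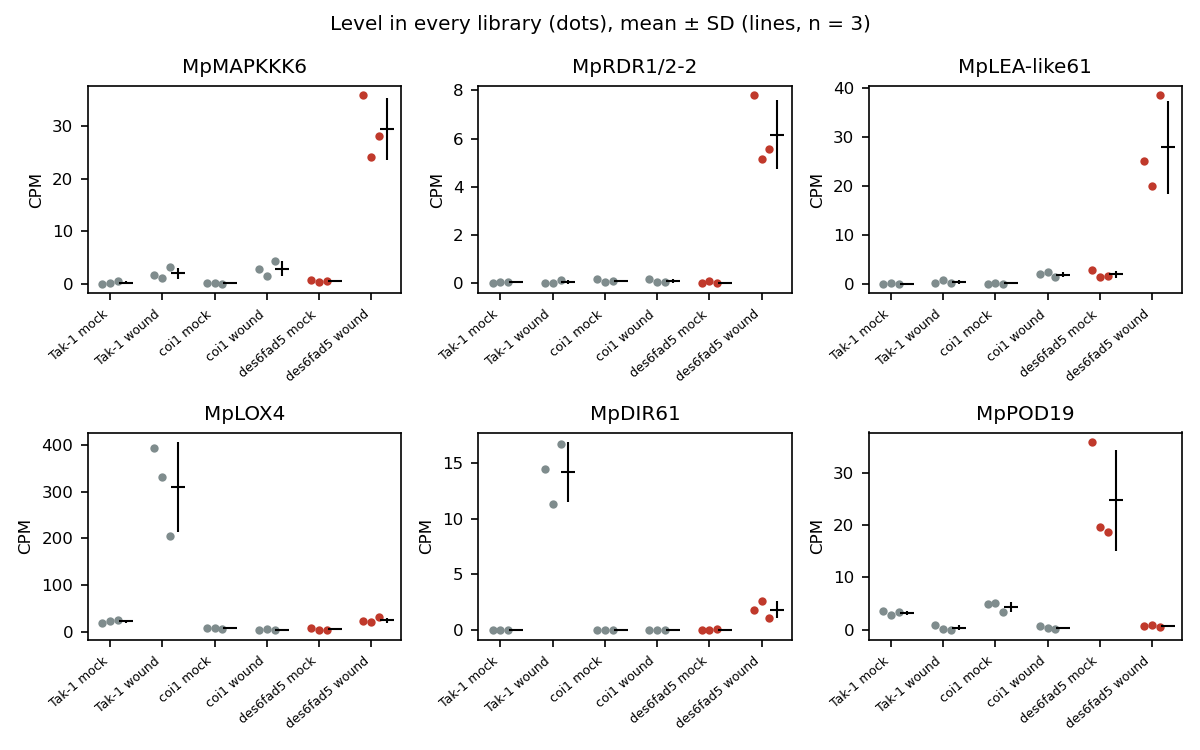
CPM (y axis, from 0) of 6 genes whose response differed between Mpdes6fad5 (red) and Tak-1, in each of the 18 libraries (dots), with group mean ± SD (n = 3). MpMAPKKK6, MpRDR1/2-2 and MpLEA-like61 stand highest in wounded Mpdes6fad5, MpLOX4 and MpDIR61 in wounded Tak-1, and MpPOD19 in mock Mpdes6fad5, where replicate 1 is the highest.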

How the data were processed

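RNA was sequenced from 18 libraries, 3 for each of 6 groups of genotype and treatment, and groups were taken from the labels. The authors deposited log2 values per gene; trimming with Trim Galore, alignment with HISAT2, counting with HTSeq and use of edgeR are named in the submitters' processing notes, with no versions or genome build given there. In the deposited log2 values a gene with no read stood at -3.4961, so CPM was recovered as the antilog minus that floor. Dividing by the value of 1 read gave whole reads within 0.01 for 100% of values up to 1000 reads. Counts of reads as deposited were not used, and the planned count test was replaced by limma on log2(CPM + 1), since the unit was log2.

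Of 20574 genes listed, 13220 with at least 1 CPM in at least 3 libraries were tested with limma 3.58.1 in R 4.3.3, with 1 mean per group over all 18 libraries, a mean-variance trend and Benjamini-Hochberg adjustment over all tested genes, at a threshold of 0.05. All adjusted p values come from this two-sided limma test, and every log2 change or difference is on the log2(CPM + 1) scale, which understates changes of low genes. Differences of response are contrasts of 4 groups within the same fit, and those against Tak-1 and Mpcoi1 share the Mpdes6fad5 libraries. The procedure was run on simulated reads with the same relative spread for every gene, no genotype differences and changes only in wounded Mpdes6fad5. The data are less even than that, so the run cannot give error rates for them. Nothing in the labels says that replicates came from separate cultures, so p values measure the spread between these libraries. Limits from read counts cover counting error only.

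Symbols came from a RefSeq table of assembly MpTak2_v7.1, which matched 17641 identifiers and gave 3091 symbols; no coordinates were used. The gene lists, members and rules were chosen with earlier results of these data known. Named genes were the 14 largest rises and falls with a symbol and no overlap, the 2 largest rises and falls without one, the jasmonate, oxylipin and desaturase genes, up to 4 of each other list, and the 8 most positive and negative differences of response. Genes outside that rule, such as single members of the abscisic acid and auxin lists, were chosen after their values were seen. Alternatives changed the constant, filter, scaling, weights, samples in the fit and replicate block, and left out each library. Whether counting used strand is not stated in the labels, and promoter sequences were not used here.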

Additional observations from a re-analysis of the deposited data

Results flagged for a closer look

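The wound response of Mpdes6fad5 differed from that of the other genotypes by the limma test of the difference itself for many genes, and each value below is called for a closer look by that test (adjusted p under 0.05). Against Tak-1, 987 genes responded higher and 974 lower, and against Mpcoi1 1344 higher and 1075 lower. Values are differences of log2 response, Mpdes6fad5 minus the other genotype, and the cause of each was not tested. Of the named differences called, 31 of 65 against Tak-1 and 56 of 96 against Mpcoi1 stayed called under every alternative. With voom those of MpLEA-like39, MpLEA-like34, MpLEA-like40 and MpCAT1 from Tak-1 turned negative, without passing the test.

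Against Tak-1 the response was higher for MpELO2 (0.62), MpBHLH2 (1.10), MpWRKY12 (0.64), MpWRKY6 (1.68), MpMAPKKK6 (3.10), MpMAPKKK10 (0.65) and MpC2H2-7 (0.67). The same held for MpLEA-like61 (2.93), MpLEA-like39 (2.63), MpLEA-like34 (2.36), MpLEA-like40 (2.22), MpLEA-like28 (2.12), MpLEAL2 (2.21) and MpRDR1/2-2 (2.77). So it was for MpCYP707A (1.34), MpCAT1 (0.73), MpGST38 (0.93) and MpHSP90-5 (1.51). Against Tak-1 the response was lower for MpLOX4 (-1.64), MpLOX2 (-0.53), MpCYP74N2 (-0.57), MpLOX8 (-1.31), MpLOX14 (-0.91), MpLOX12 (-1.15) and MpNINJA (-0.57). The same held for MpCYP94L1 (-1.01), MpFAD8 (-0.77), MpFAE2 (-0.45), MpUGT35 (-0.75), MpDIR39 (-1.47), MpDIR41 (-1.97) and MpDIR42 (-1.81). So it was for MpDIR61 (-2.46), MpDIR65 (-1.97), MpHSP90-1 (-0.92), MpHSP90-4 (-0.46), MpPOD19 (-2.08), MpPOD13 (-2.24) and MpCupin36 (-2.43). Further such values were those of MpGH16.25 (-1.70) and MpH1 (-0.29).

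Against Mpcoi1 the response was higher for MpJAZ (2.06), MpGH3A (3.64), MpCYP94-like (3.07), MpLOX4 (2.80), MpLOX2 (1.48), MpLOX10 (1.09) and MpCYP74N1 (0.75). The same held for MpCYP74N2 (1.87), MpFAD5 (0.48), MpFAD8 (0.61), MpFAD11 (1.48), MpBHLH2 (4.0), MpBHLH3 (3.05) and MpBHLH4 (6.67). So it was for MpBHLH51 (2.74), MpERF7 (2.07), MpERF15 (2.33), MpMAPKKK6 (2.60), MpRDR1/2-2 (2.80), MpCYP815A1 (6.16) and MpDIR39 (4.33). Further such values were those of MpPKC2 (3.49), MpPAL3 (3.42) and MpPKS/CHS18 (3.38). Against Mpcoi1 the response was lower for MpCYP94L1 (-0.64), MpNINJA (-0.46), MpFAD9 (-0.69), MpHSP90-1 (-0.95), MpGST26 (-1.43), MpPOD18 (-1.78) and MpLEA-like18 (-1.78). The same held for MpPOD19 (-1.81), MpPOD13 (-2.21), MpPOD17 (-1.43), MpCupin36 (-1.92) and MpGH16.25 (-1.60).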

How the results depend on the processing

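Depth limits calls near 3 reads, 3 libraries per group limit small differences, and levels near 0 depend on the constant added to CPM. Of 155 named wound responses called in Mpdes6fad5, 145 stayed called under every alternative tried and none changed direction. For differences of response the shares were 31 of 65 against Tak-1 and 56 of 96 against Mpcoi1. With a 2-fold requirement 1356 higher and 341 lower genes remained of the wound response, and 249 higher and 137 lower calls over all gene lists instead of 474 and 452. Falls of at least 2-fold numbered 518 with 0.1 CPM, 154 with 5 CPM, 520 with the deposited values and 535 with voom, and the cause was not tested for the last 2. Leaving out 1 library gave 3453 to 3540 higher and 3327 to 3453 lower genes, 1333 to 1379 and 330 to 365 at 2-fold, and 437 to 452 and 410 to 426 calls over lists. Differences then ranged from 777 to 1463 higher and 693 to 1363 lower against Tak-1, and from 1094 to 1451 and 780 to 1286 against Mpcoi1. The highest counts came without wounded replicate 3 of Tak-1 and of Mpcoi1, respectively. Some differences of lowly expressed genes turned direction, none passing the test there, and the cause was not tested. Against Tak-1, MpCAT1 stood at -0.05387 with the deposited values and -0.809 with voom. With voom MpLEA-like39 stood at -0.07152, MpLEA-like34 at -1.472, MpLEA-like40 at -0.149 and MpLOX6 at 0.7483, and MpLEA-like36 stood at -0.6113 (0.1 CPM), -0.7571 (deposited) and -2.363 (voom). Against Mpcoi1, with 0.1 CPM, deposited values and voom in turn, MpLEA-like40 stood at -0.9466, -1.089 and -2.832, MpLEA-like36 at -0.1202, -0.2007 and -1.172, and Mp5g07480 at -0.1617, -0.2414 and -1.318. MpLEA-like39 and MpLEA-like61 stood at -1.625 and -1.087 with voom. With a mean of at least 5 CPM fewer genes were tested, and 51 peroxidase, 34 cell wall and 9 cupin genes fell. The replicate numbers did not pair the Mpdes6fad5 libraries (correlations of deviations -0.00922, 0.0211 and -0.181), and the replicate block gave 3722 higher and 3810 lower genes, 988 and 981 differences from Tak-1 and 1353 and 1113 from Mpcoi1. The promoter motif shares planned at the outset were not run.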

Other observations

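Genes without a symbol included the most extreme differences of response from Tak-1, and the 4 named here were chosen after their values were seen. Mp2g18790 stood at 67.6, 39.3 and 67.1 CPM in wounded Tak-1, at 0.531, 0.556 and 0.5596 CPM in wounded Mpdes6fad5 and at 0.0853, 0.0442 and 0.0445 CPM in wounded Mpcoi1, a difference of -4.38 from Tak-1 (limma, adjusted p = 4.99e-07). Its mock levels were 0.103, 0.883 and 1.73 CPM in Tak-1, and no read was counted in mock Mpdes6fad5. Mp6g09000 stood at 57.3, 47.2 and 56.4 CPM in wounded Tak-1 and at 3.98, 4.17 and 4.88 CPM in wounded Mpdes6fad5, a difference of -2.80 (limma, adjusted p = 2.74e-07). Its mock levels were 0.414, 0.762 and 0.487 CPM in Tak-1 and 0.0755, 0 and 0.0942 CPM in Mpdes6fad5. In the other direction, Mp4g21030 stood at 32.2, 22.8 and 28.3 CPM in wounded Mpdes6fad5 against 1.37, 1.63 and 3.3 CPM in wounded Tak-1, a difference of 3.32 (limma, adjusted p = 9.01e-06). Mp1g07300 stood at 24.03, 14.6 and 21.9 CPM against 1.58, 1.44 and 2.73 CPM, a difference of 2.87 (limma, adjusted p = 2.23e-06). Wounded libraries of the 2 genotypes did not overlap in any of these 4 genes. Mock levels of all 4 were low, so the size of each difference depends on the constant of 1 CPM. The alternatives were not run on these genes, and a smaller difference in fold change is possible.

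Some genes that moved at least 2-fold in Mpdes6fad5 lay next to each other among tested genes. A run of 9 rises on chromosome 4 held 4 chalcone synthase family genes and 3 genes of the phenylalanine ammonia-lyase family. The responses were 1.38 to 3.65 in Mpdes6fad5, 1.11 to 2.3 in Tak-1 and 0.359 to 2.29 in Mpcoi1. A run of 5 rises on chromosome 6, MpLEAL3 and MpLEA-like34 to MpLEA-like37, had responses of 3.19 to 4.39 in Mpdes6fad5 and 2.03 to 2.65 in Tak-1. In Mpcoi1 they were 2.43 to 4.14, a range that overlaps that of Mpdes6fad5. The differences of MpLEA-like34 and MpLEA-like36 from Tak-1 turned negative with voom, without passing the test. A run of 7 falls on chromosome 5 with MpPOD93, MpPOD94 and MpPOD96 had responses of -3.23 to -1.37 in Mpdes6fad5. They were -2.26 to -0.875 in Tak-1 and -2.61 to -0.708 in Mpcoi1. Reads shared between close copies may have been split among the genes of a run, and no test of the runs was made.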
